A study of Homo sapiens with 10 samples.

Results

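MGMT, which encodes O6-methylguanine-DNA methyltransferase, was followed as 1 of 59453 genes in RNA-seq libraries of HAP1 cells. It was chosen by its log2 fold changes against wild type (WT), which had opposite signs between knockouts of DNA glycosylases: the values that selected it were those of the MUTYH knockout (MUTYH KO), the OGG1 knockout (OGG1 KO) and the double knockout (DKO). Its values in these 3 knockouts are therefore given as a description, with no test.

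MGMT removes alkyl groups from the O6 position of guanine by transferring them to a cysteine of its own, a direct reversal of the damage in which each protein molecule is used once. It protects cells against alkylating agents such as temozolomide, and cells that lack it depend on mismatch repair to respond to such lesions. The gene is known for a promoter rich in CpG and for silencing in tumours and cell lines in which that promoter is methylated. OGG1 and MUTYH act on another kind of guanine damage: OGG1 excises 8-oxoguanine, and MUTYH excises the adenine misincorporated opposite it.

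HAP1 is a near-haploid adherent human line derived from the leukaemia line KBM-7. Groups were WT, MUTYH KO (genotype MUTYH-/ in the labels), OGG1 KO (OGG1-/) and DKO (MUTYH-/ X OGG1-/), all untreated, and WT treated with 100 µM H2O2 and collected 24 hours later. Each group had 2 libraries from different clones, and WT clones 11 and 2 were sequenced both with and without treatment. Knockouts carried CRISPR-Cas9 insertions or deletions. The study's supplement gives 1 OGG1 KO clone as the parent of both DKO clones, and its product number ends in the 22 of the label OGG1 KO clone 22, so the DKO clones share ancestry with that clone and with each other. P values measure the spread between these clones, and a difference between genotypes cannot be told apart from a difference between clones that arose independently of the edited gene. Reads are from bulk RNA, in which fewer cells making MGMT and less MGMT RNA per cell cannot be told apart.

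Libraries held 22225091 to 22674964 counts. OGG1 itself had 27 counts in OGG1 KO clone 1 and 215 to 331 in the other 9 libraries, and MUTYH had 50 to 119 counts with no separation of the genotypes, so read counts over the genes checked the label of OGG1 KO clone 1 only. A read count need not fall with a small insertion or deletion. At the protein level, the paper reports that targeted mass spectrometry verified the knockouts in every clone. Haematopoietic markers (PTPRC, CD33, CD34, SPI1, GATA1 and CD3E) summed to 0.268 to 1.48 CPM (counts scaled to the library total) per library, with CD3E at 0 in all 10 libraries and SPI1 at 0 in 9, while the fusion partners of the parental leukaemia, BCR and ABL1, stood at 23.4 to 30.2 and 20.5 to 32.5 CPM. Of markers of other lineages, COL1A1 stood at 15.3 to 47.4 CPM, EPCAM at 0.134 to 2.97 CPM, and PECAM1 and ALB at up to 0.0898 and 0.178 CPM.

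MGMT (ENSG00000170430) is a protein-coding gene on the plus strand of chromosome 10, at chr10:129467190-129770983 of GRCh38. It spans 303.8 kb, and its annotated exons cover 6527 bases. The annotation places 3 further noncoding genes over it, of which 2 lie on the opposite strand and 1 on the same strand. Reads of these cannot be separated from MGMT reads here. The strand setting of the counting is not stated, and strand would not separate the gene on the same strand. The stretch of 199 bases that ends just before the start annotated by GENCODE is shown (chr10:129466991-129467189 of GRCh38, plus strand, sequence from RefSeq). It is a part of the promoter, the region at which expression of the gene is known to be controlled. The start given by RefSeq lies further downstream at position 129467241, and the sequence around that start is not shown. Every CpG is in capitals.

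MGMT promoter: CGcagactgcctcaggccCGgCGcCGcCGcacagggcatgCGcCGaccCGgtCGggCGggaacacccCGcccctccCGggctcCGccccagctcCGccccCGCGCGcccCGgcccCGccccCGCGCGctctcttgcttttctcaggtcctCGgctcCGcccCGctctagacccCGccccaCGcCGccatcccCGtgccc

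This stretch held 29 CpG dinucleotides and 80.4% G or C, against medians of 8 and 57.3% over the same window of 35116 promoters, of which 4.67% held as many CpG. The letters GGGCGG, the GC box bound by factors of the SP family, occurred 7 times on both strands together. Of all promoters, 34.8% held at least 1 GC box in this window and 0.416% held at least 7. These matches describe the sequence only, and DNA methylation was not measured in these libraries.

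MGMT was highest in the MUTYH KO, intermediate in WT, low in the OGG1 KO and lowest in the DKO. WT clone 11 had 103 MGMT counts and WT clone 2 had 74, or 4.57 and 3.29 CPM after TMM normalization, the library scaling used for all CPM below unless raw CPM is named. MUTYH KO clone 7 had 160 counts (7.39 CPM) and clone 8 had 309 counts (13.7 CPM). Both MUTYH KO clones lay above both WT clones, and clone 8 lay 1.94-fold above clone 7 (95% exact interval of the counts 1.59 to 2.36).

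The OGG1 KO clones 1 and 22 had 17 counts each, which gave 0.769 and 0.756 CPM. DKO clone 4 had 7 counts (0.314 CPM) and DKO clone 14 had 1 count (0.0441 CPM). The 4 libraries that lacked OGG1 thus all lay below the WT clones, and the DKO clones lay below the OGG1 KO clones. The DKO clones share ancestry with OGG1 KO clone 22, so these 4 libraries do not hold 4 independent losses of OGG1. Group means were 10.6 ± 4.47 CPM in the MUTYH KO, 3.93 ± 0.907 CPM in WT, 0.762 ± 0.00944 CPM in the OGG1 KO and 0.179 ± 0.191 CPM in the DKO (SD, n = 2 each).

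**Figure D1:**
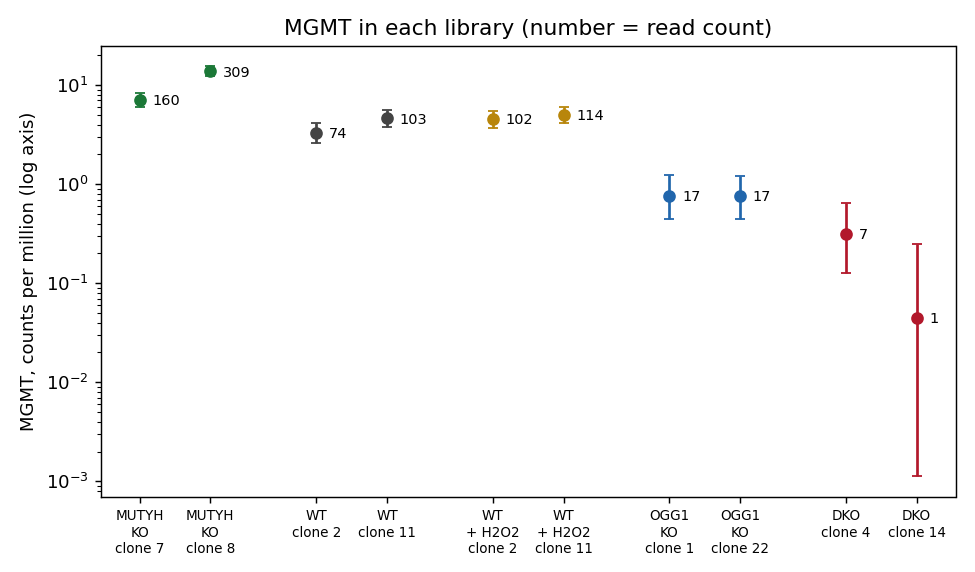
MGMT level in raw CPM (log axis) in each of the 10 libraries; points are libraries, numbers are read counts and bars are 95% exact counting intervals. The MUTYH KO clones (160 and 309 counts) lie above WT, and the OGG1 KO (17 and 17) and DKO clones (7 and 1) lie below it.

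As ratios of pooled raw CPM, MGMT was 2.64-fold higher in the MUTYH KO than in WT (95% exact interval 2.22 to 3.16). It was 5.20-fold higher in WT than in the OGG1 KO (3.59 to 7.75) and 22.2-fold higher in WT than in the DKO (11.01 to 52.15). These intervals, and the others on raw counts, cover counting error only and not the spread between clones, and may understate even that error, since no molecular identifiers mark which reads are copies of 1 molecule. The fitted log2 fold changes, which take in that spread, were 1.40 ± 0.51 (SE) in the MUTYH KO, -2.24 ± 0.54 in the OGG1 KO and -3.90 ± 0.60 in the DKO, with all 3 knockouts set against the same WT libraries. On the log2 scale the pooled SD within groups was 0.50, 0.23 and 0.83 for these comparisons. The DKO fold rested on 8 counts in all and moved from -3.32 to -4.92 when clone 14 or clone 4 was left out, and the MUTYH KO fold was 0.90 without clone 8.

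Among the knockouts themselves, MGMT differed most between the DKO and the MUTYH KO, at a log2 difference of -5.30 ± 0.62 (SE), and the OGG1 KO and the MUTYH KO differed by -3.64 ± 0.56. The DKO and the OGG1 KO were the closest pair, at -1.67 ± 0.57. In pooled counts the OGG1 KO was 4.26-fold above the DKO (1.94 to 10.7). Set against the related OGG1 KO clone 22, DKO clone 14 stood at a ratio of 0.0586 (0.00140 to 0.374) and DKO clone 4 at 0.414 (0.145 to 1.05). The counts of the DKO clones themselves, 7 and 1, gave a ratio of 7.07 (0.908 to 319). These ratios set single libraries side by side and leave out the spread between clones, so they describe the libraries only.

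The libraries also differed in a way that genotype did not follow. The first principal component of log2 CPM held 31.1% of the variance of the untreated libraries and placed 1 clone of each genotype on either side, with WT clone 2, MUTYH KO clone 8, OGG1 KO clone 22 and DKO clone 14 on one side and the other 4 on the opposite side. As the genotypes did not overlap in MGMT, each side necessarily had the same order, and the ratios within sides are given for their size only. Against WT clone 2 the ratios of CPM were 4.17 for the MUTYH KO, 0.230 for the OGG1 KO and 0.0134 for the DKO. Against WT clone 11 they were 1.62, 0.168 and 0.0687. What sets these sides apart is not given in the labels.

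The order of MGMT was then counted over all genes tested. An order of 4 genotypes with no overlap is strict, so a small count does not make it particular to MGMT. Among 17881 genes tested, 10 (0.0559%) were higher in both MUTYH KO clones than in WT, lower in both OGG1 KO clones than in WT and lower again in both DKO clones, with no overlap between groups, and MGMT was the gene chosen for this. Without the order of the OGG1 KO and DKO, 50 genes (0.280%) had the MUTYH KO above and the other knockouts below WT. In 8 of the 10 ordered genes the MUTYH KO mean was 1.12 to 2.87 times the DKO mean, against 59.0 times for MGMT. The remaining gene was PRDM16, a zinc-finger transcription factor named here after its values were seen. PRDM16 had 375 and 553 counts in the MUTYH KO, 176 and 362 in WT, 161 and 79 in the OGG1 KO and 33 and 73 in the DKO. Its MUTYH KO mean was 8.91 times its DKO mean, and its nearest clones of WT and the OGG1 KO, at 176 and 161 counts, lay close together.

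The genes whose log2 CPM followed MGMT most closely over the 8 untreated libraries, by Pearson correlation among 16075 genes, were PTPA (r = 0.965), GINS3 (0.964), RORA (0.961), PRDM10 (0.949) and PRXL2B (0.946). PTPA encodes an activator of protein phosphatase 2A, GINS3 a subunit of the replicative helicase and RORA a nuclear receptor. The lowest correlations were those of AC004076.2 (-0.950), CDC42BPG (-0.949) and IRS4 (-0.945), of which IRS4 is an insulin receptor substrate. These genes varied far less than MGMT. MGMT covered 6.69 log2 units over the 8 libraries, the 5 most similar genes covered 0.21 to 1.10 and the 3 most opposite genes covered 0.39 to 1.37. The ranking described these libraries only: with all 10 libraries, or with Spearman correlation, 0 of the 5 most similar genes were among the 5 highest.

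**Figure D2:**
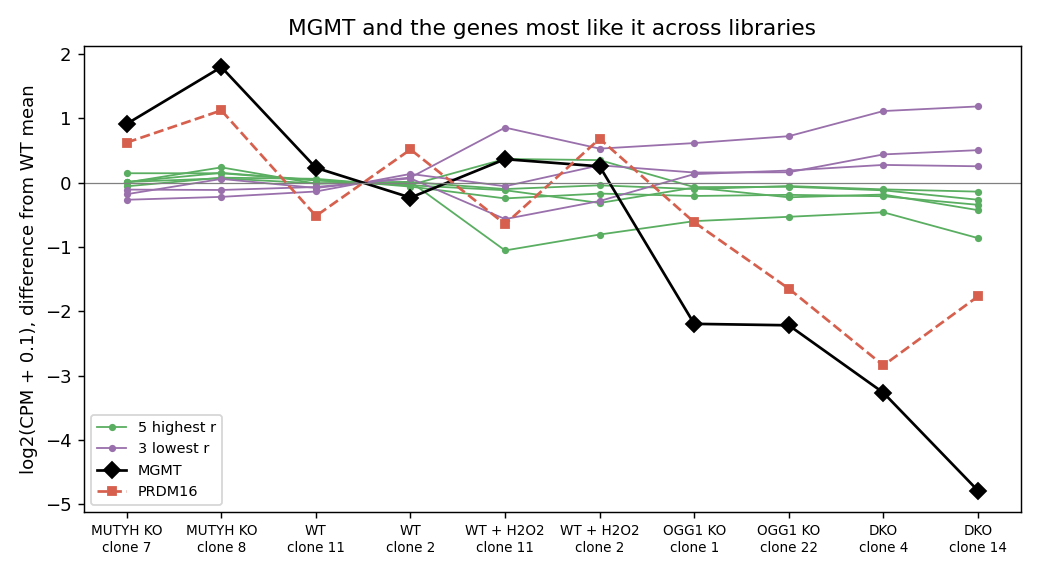
Level of MGMT, PRDM16, the 5 genes with the highest and the 3 with the lowest Pearson correlation with MGMT, as log2(CPM + 0.1) minus the mean of the untreated WT clones, in each library. In the knockouts MGMT falls furthest in the DKO clones, and the 8 correlated genes stay much closer to 0 than MGMT. After H2O2 some of these genes, RORA among them, lie further from 0 than MGMT.

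Set against other tested genes per length, MGMT stood below their median even where it was highest. Its mean of 0.602 CPM per kb of exon in WT placed it at the 17.8th percentile of the 15222 tested genes with a length. Length was that of all annotated exons together, 6527 bases for MGMT, in a release other than the one counted on. The levels per kb and the percentiles depend on that choice. These genes, MGMT among them, had passed the count filter of the genotype fit, so genes with lower counts are left out of the ranking. In the MUTYH KO MGMT stood at 1.62 CPM per kb, the 30.2nd percentile. The OGG1 KO (0.117 CPM per kb) and the DKO (0.0274 CPM per kb) placed it at percentiles 4.62 and 0.466.

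After H2O2, MGMT was measured in libraries outside the knockout contrasts by which it was chosen. Earlier results of these data were known at that choice, and the untreated WT clones compared here had a part in it. Clone 11 went from 103 to 114 counts (4.57 to 5.02 CPM) and clone 2 from 74 to 102 counts (3.29 to 4.64 CPM). Each clone was higher after treatment than before it, but the groups barely parted: treated clone 2 lay just above untreated clone 11 in TMM-normalized CPM and just below it in raw CPM (4.56 against 4.62). The treated mean was 4.83 ± 0.270 CPM (SD, n = 2). The log2 fold change was 0.29 ± 0.29 (SE; edgeR quasi-likelihood test, adjusted p = 0.805), so a difference beyond the spread between clones was not detected. With the clones paired as a replicate block it was 0.30 ± 0.24 (edgeR adjusted p = 0.525). In pooled counts the ratio was 1.21 (0.986 to 1.48), in clone 11 it was 1.09 (0.826 to 1.43) and in clone 2 it was 1.38 (1.01 to 1.88). The pooled interval lay below the 2.64-fold ratio of the MUTYH KO, in counting error, and the difference between these ratios was not tested. In the treated WT clones MGMT stood at the 20.8th percentile per length.

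The neighbourhood of MGMT was compared to see whether genes beside it differed too. Within 2 Mb of either end the annotation held 40 genes, of which 19 were matched by symbol and 6 were expressed enough to be tested. Of the 13 others, 9 had 0 counts in all 10 libraries and the other 4 reached at most 3 counts. A gene was called when the unadjusted p was at most 0.05 and the log2 fold change lay beyond 1 in either direction, the study's criterion. By this rule 1.19% of all genes tested were called in the MUTYH KO, 1.67% in the OGG1 KO, 1.77% in the DKO and 1.75% after H2O2. Of the 6 neighbours, 0 were called in any comparison. An unadjusted edgeR p of at most 0.05 was also held by 0 of 6. Of all genes tested, 1.72%, 2.74% and 2.94% held one in the MUTYH KO, OGG1 KO and DKO, and 7.63% after H2O2. With the clones paired as a replicate block 1 of 6 had one after H2O2, beside 20.1% of all genes. This was PTPRE, at a fold below the criterion.

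EBF3, a transcription factor gene 64.2 kb downstream and the nearest gene tested, had log2 fold changes of 0.23 ± 0.24 in the MUTYH KO, -0.01 ± 0.24 in the OGG1 KO and -0.12 ± 0.24 in the DKO (SE). GLRX3, a glutaredoxin gene 365.4 kb downstream, had 0.05 ± 0.21, 0.08 ± 0.21 and 0.12 ± 0.21. MKI67, the gene of the proliferation marker Ki-67 at 1340.8 kb upstream, had 0.02 ± 0.31, -0.21 ± 0.31 and -0.29 ± 0.31. None of these 3 genes followed MGMT in size. C10orf143 and the pseudogene CTAGE7P, which overlap each other, had 16 to 36 and 22 to 56 counts per library and log2 fold changes of -0.03 to 0.52 in the knockouts.

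PTPRE, a receptor-type tyrosine phosphatase gene 1381.3 kb upstream, varied most among the neighbours. It had 92 and 154 counts in WT, 24 and 149 in the MUTYH KO, 1 and 44 in the OGG1 KO (clone 1 the lowest), and 128 and 65 in the DKO. In the OGG1 KO the fold change was -2.44 ± 1.22 on the log2 scale (SE; edgeR adjusted p = 0.999), in the MUTYH KO -0.51 ± 1.12 and in the DKO -0.34 ± 1.12. Unlike MGMT, its DKO clones overlapped WT. After H2O2, PTPRE went from 92 to 55 counts in clone 11 and from 154 to 101 in clone 2, a log2 fold change of -0.64 ± 0.43 (SE; edgeR adjusted p = 0.717), or -0.66 ± 0.24 with the replicate block (edgeR adjusted p = 0.159). PTPRE was called in the OGG1 KO by the DESeq2 Wald test, with no filter on low counts, with the side of the first principal component as a block and without OGG1 KO clone 22. Over all genes of chromosome 10 that were tested (591), the median log2 fold change was 0.01 in the MUTYH KO, -0.04 in the OGG1 KO and 0.01 in the DKO.

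**Figure D3:**
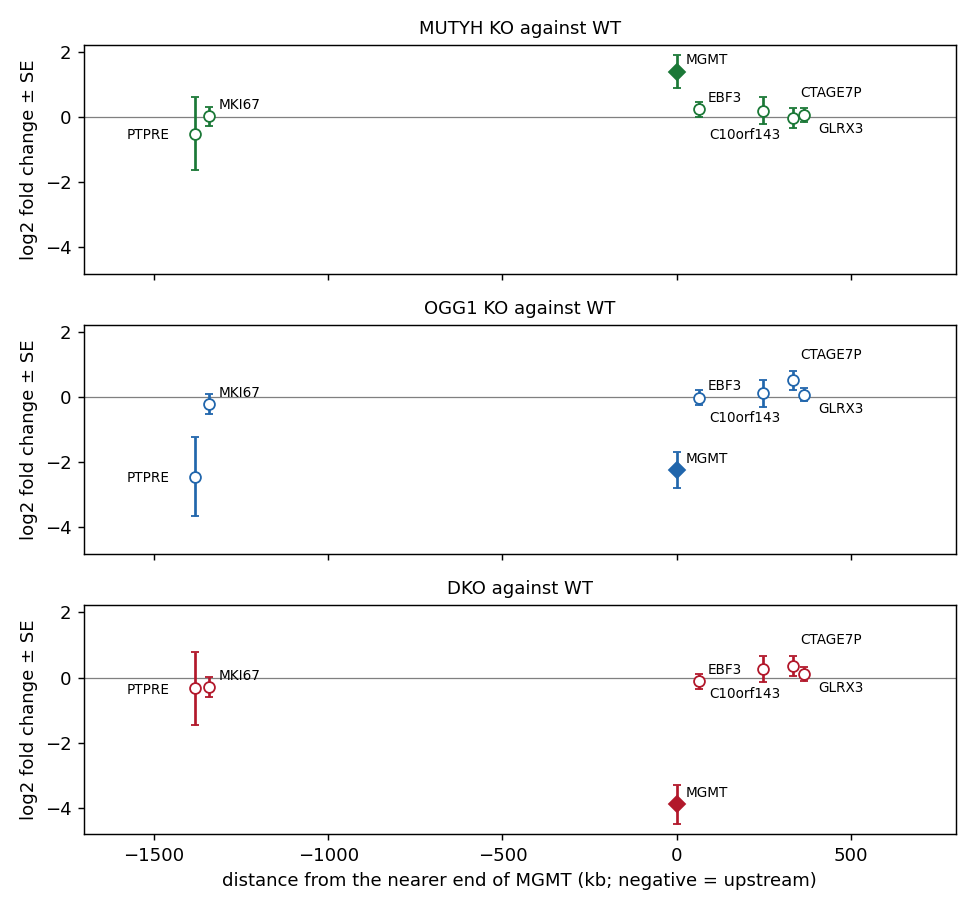
Log2 fold change against WT (± SE) of MGMT (filled diamond, distance 0) and its 6 tested neighbours (open circles) by distance in kb from the nearer end of MGMT, in the MUTYH KO, OGG1 KO and DKO. Neighbours lie near 0 in the 3 comparisons except PTPRE in the OGG1 KO, at -2.44 ± 1.22.

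Genes that work beside MGMT or on it were then counted: 50 genes in 5 lists, none of which holds MGMT. In each of the 3 knockouts 0 of the 50 genes were called, where 1.19%, 1.67% and 1.77% of all genes were. At an unadjusted edgeR p of at most 0.05 there were 0 in the MUTYH KO, 1 in the OGG1 KO and 0 in the DKO, beside 1.72%, 2.74% and 2.94% of all genes tested, and 0 had an adjusted p of at most 0.05. The DESeq2 Wald test also called 0 of the 50 in each knockout. The median absolute log2 fold change of the 50 genes was 0.12 in the MUTYH KO, 0.10 in the OGG1 KO and 0.11 in the DKO, beside 0.13, 0.17 and 0.16 over all genes tested.

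The 8 other genes of direct reversal, which include the ALKBH dioxygenases and the ASCC helicase complex that acts with ALKBH3, ranged from -0.20 to 0.24 in log2 fold change over the knockouts, with medians of 0.05, -0.05 and -0.02 in the MUTYH KO, OGG1 KO and DKO. ALKBH2, a dioxygenase that repairs alkylated bases in DNA, had 652 and 895 counts in WT, 721 and 638 in the MUTYH KO, 674 and 792 in the OGG1 KO and 607 and 784 in the DKO. These groups overlapped. The 10 genes of base excision repair of alkylated bases, led by the glycosylase gene MPG, ranged from -0.33 to 0.44, with medians of 0.03, 0.06 and -0.11. The 9 mismatch repair genes ranged from -0.75 to 0.17, with medians of -0.03, -0.07 and -0.05. Their lowest values in the MUTYH KO and the OGG1 KO were those of MLH3, at -0.64 ± 0.69 and -0.75 ± 0.70 (SE). MLH3 had few reads: 5 and 19 counts in WT, 9 and 6 in the MUTYH KO and 5 and 9 in the OGG1 KO.

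The 13 genes of the DNA methylation machinery ranged from -0.48 to 0.25, with medians of 0.04, -0.06 and -0.10. DNMT1, the maintenance methyltransferase gene, had log2 fold changes of 0.04 ± 0.20, -0.06 ± 0.20 and -0.07 ± 0.20 in the MUTYH KO, OGG1 KO and DKO (SE). DNMT3B, a de novo methyltransferase gene, had -0.20 ± 0.14, 0.23 ± 0.14 and -0.01 ± 0.14. Both remained within 1 log2 unit of WT. The 10 factors known to act on the MGMT promoter, among them SP1 and the AP-1 subunits JUN and FOS, ranged from -0.82 to 0.33, with medians of 0.01, -0.13 and -0.01.

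After H2O2, 2 of the 49 list genes tested were called, both higher and both AP-1 subunits, beside 1.75% of all genes. JUN had 152 and 256 counts in untreated clones 11 and 2 and 646 and 480 in treated ones, a log2 fold change of 1.47 ± 0.31 (SE; edgeR adjusted p = 0.638). FOS had 32 and 40 counts untreated and 122 and 56 treated, a log2 fold change of 1.30 ± 0.45 (edgeR adjusted p = 0.638). Treated and untreated clones did not overlap for either gene, which says little with 2 libraries on each side. The share of all genes without overlap was not counted. With the clones paired as a replicate block the adjusted p of JUN was 0.00752 and that of FOS 0.0821 by edgeR, and without the treated clone 11 neither gene was called. Under that block 2 of the 49 genes had an adjusted p of at most 0.05, beside 2.57% of all genes: JUN and EXO1, an exonuclease gene of mismatch repair. EXO1 had 1468 and 2189 counts untreated and 2359 and 3019 treated, a log2 fold change of 0.58 ± 0.12 (SE; edgeR adjusted p = 0.0305 with the block and 0.638 without it), below the fold that the criterion asks for. The other lists had medians of 0.23 (direct reversal), 0.03 (base excision repair), 0.09 (mismatch repair) and 0.06 (DNA methylation machinery) after H2O2, the promoter factors 0.28, and all genes tested 0.00018. MGMT, at 0.29, lay within the range of each list except base excision repair, whose highest value was 0.22.

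**Figure D4:**
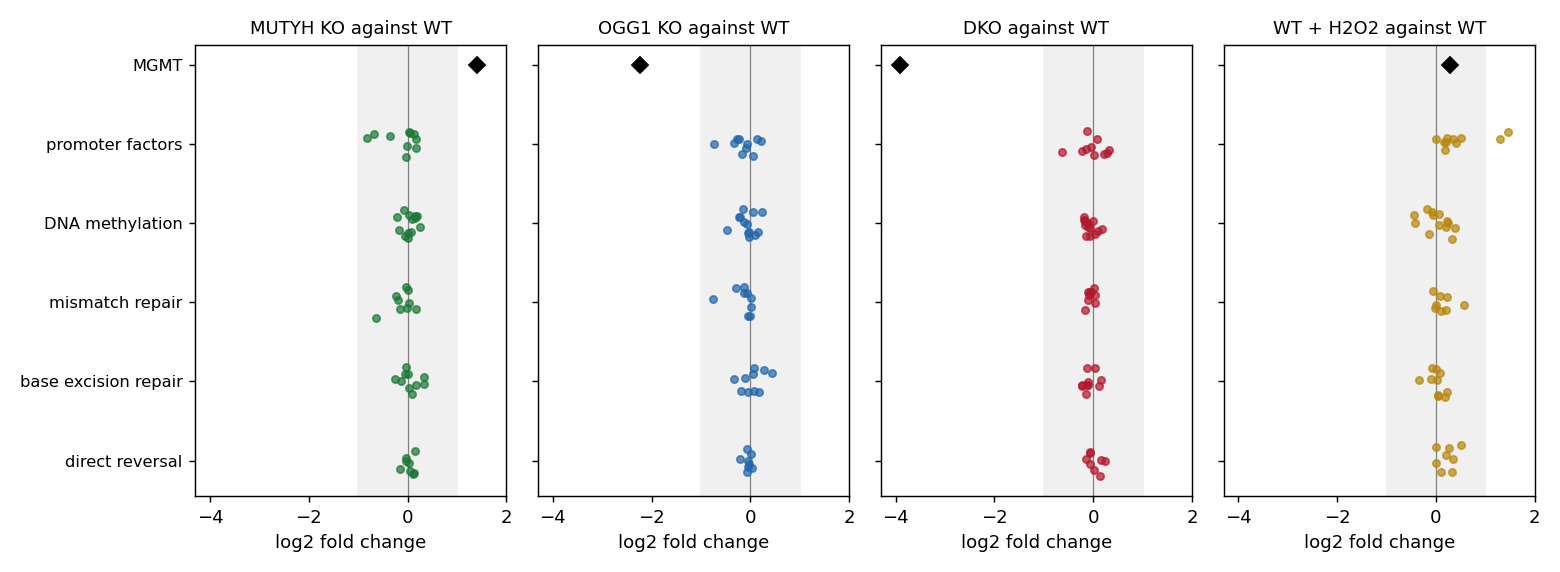
Log2 fold change against WT of MGMT (black diamond) and of the 50 list genes (circles, 49 after H2O2; vertical spread within a list is for legibility), one panel per comparison; grey marks 1 log2 unit either side of 0. In the knockouts the 50 genes lie inside the grey band and MGMT outside it, and after H2O2 JUN and FOS lie above it.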

How the data were processed

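RNA-seq of 10 HAP1 libraries was deposited as read counts per gene. Per the methods the authors aligned reads to GRCh38.p13 with HISAT2 2.2.1 (R 4.2.2 and edgeR 3.42.4 stand in the submitters' processing notes) and made the counts with Rsubread on an Ensembl annotation; strand and multi-mapping settings are not given in the sources used here. Untreated WT columns were identical in both tables and were used once. No other column was left unmatched.

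Counts were fitted here in R 4.3.3 with edgeR 4.0.16 (TMM factors 0.967 to 1.013, filterByExpr, legacy quasi-likelihood, two-sided tests, Benjamini-Hochberg adjustment over all genes tested): genotypes in 1 fit of 8 untreated libraries (17881 genes), H2O2 in a fit of 4 WT libraries (16997 genes). MGMT fold changes used a prior count of 2, those of other genes the edgeR default of 0.125. The edgeR fit gives no SE directly. Each SE is the absolute log2 fold change divided by the square root of its F statistic, so it changes with the prior count. Same-numbered WT clones are the same clone, and their clone difference correlated between treated and untreated cells (r = 0.681 across 16997 genes), so the block is given beside the H2O2 results. Positions and exon lengths come from GENCODE v44 on GRCh38, a release other than the one counted on, which matched 38434 symbols (64.6%). Counting intervals are exact at 95%. Scripts were tested on simulated data.

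MGMT and the lists were chosen with earlier results of these data known. Besides the markers reported, 1 further marker is not reported here. Genes named were MGMT, tested neighbours within 2 Mb, called list members, the 5 highest and 3 lowest correlations, and OGG1 and MUTYH; PRDM16 and EXO1 were named after their values were seen, the markers as markers and the remaining list examples for their role. Alternatives were DESeq2 1.42.0 scaling and Wald test, other filters, the edgeR 4 quasi-likelihood, other sets of libraries, blocks, the prior count and leaving out each library.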

Additional observations from a re-analysis of the deposited data

Results flagged for a closer look

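MGMT moved in opposite directions in different knockouts: every MUTYH KO library lay above both WT libraries (log2 fold change 1.40), and every library of the OGG1 KO (-2.24) and of the DKO (-3.90) lay below both. MGMT was chosen for this, and the difference between the fold changes was not tested.

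FOS, the AP-1 subunit, lay below both WT clones in both MUTYH KO clones (0.971 and 0.843 CPM, against 1.42 and 1.78 in WT; log2 fold change -0.82) and above them in both DKO clones (2.20 and 1.81 CPM; 0.33). FOS was not called in either knockout, and the difference between them was not tested. Its counts were 21 and 19 in the MUTYH KO, 32 and 40 in WT, and 49 and 41 in the DKO. The SE of the log2 fold change was 0.35 in the MUTYH KO and 0.34 in the DKO. A lack of overlap says little with 2 libraries in each group, and the share of all genes with this pattern was not counted.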

How the results depend on the processing

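MGMT kept its direction in all 4 comparisons under every alternative that gave a value; its log2 fold change ranged from 0.90 to 1.77 in the MUTYH KO, from -2.46 to -1.98 in the OGG1 KO and from -4.92 to -3.32 in the DKO, these last ranges set by leaving out 1 library, and from 0.07 to 0.54 after H2O2 (edgeR or DESeq2 p from 0.194 to 0.856; 0.30 with the clone replicate block). In the knockouts the kept direction was no check, as MGMT was chosen by these signs. Its knockout and WT libraries did not overlap, so leaving out 1 library could not reverse them. A minimum of 10 counts in every library removed MGMT from the genotype fits, so it has no value there. Numbers of genes called in the MUTYH KO, OGG1 KO, DKO and H2O2 comparisons were 212, 299, 317 and 298; with no filter on low counts 532, 692, 705 and 510; with at least 10 counts in every library 86, 123, 134 and 195; and leaving out 1 library in turn 117 to 702, 165 to 806, 260 to 673 and 217 to 497. The low-count filters change how many genes are tested; the cause of the other shifts was not tested. After H2O2 the DESeq2 Wald test called 154 genes and the clone replicate block 473, with 437 at an adjusted p of at most 0.05 against 0 without the block.

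List genes called ranged from 0 to 1 in the MUTYH KO (CEBPB without WT clone 11) and from 0 to 3 after H2O2 when 1 library was left out. Neighbours called in the OGG1 KO were 1 (PTPRE) under the DESeq2 Wald test, with no filter and with the principal component side as a block, and 0 to 1 when leaving out 1 library. Of the 5 genes most like MGMT, 0 were shared with all 10 libraries and 0 with Spearman correlation. Where a group kept 1 library, that library was assumed to vary like the others. The 1 to 17 counts of MGMT in libraries lacking OGG1 limit the precision of its fold changes, and differences below the counting intervals were not detectable at this depth. By the criterion of p and fold, the replicate block changed no call of MGMT, the list genes or the neighbours.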
